A study of Mus musculus with 3 samples.

Results

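The 60 genes described here mark the S phase and the G2 and M phases of the cell cycle, and they were measured in single cells of the mouse forelimb bud. They were chosen as a list of names, 30 S genes from Mcm2 to Exo1 and 30 G2/M genes from Top2a to Aurka, and were found by symbol among the 15122 genes of the count matrix. All 60 had a row. S genes encode proteins that open, copy and supply the DNA, and their transcripts build up from late G1 under E2F transcription factors. G2/M genes encode cyclins, kinases, kinesins and anaphase regulators, and their transcripts build up later, under the MuvB complex with MYBL2 and FOXM1. The early limb bud is a mass of dividing mesenchyme that grows out under signals of the apical ectodermal ridge. Cells that condense to cartilage there turn on Sox9, and cells that leave the cycle often carry inhibitors of cyclin-dependent kinases such as Cdkn1c.

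The data are 3 libraries of droplet single-cell RNA sequencing, 1 reaction for each stage and strain, all from wild-type embryos. B6_E10.5 is the forelimb of c57bl6.J embryos at embryonic stage E10.5, 129_E9.5 that of 129S6.sv embryos at E9.5, and B6_E9.5 that of c57bl6.J embryos at E9.5. The number of embryos behind each library, and whether they were pooled, are not given in the sources used here. Each captured transcript end is counted once by its unique molecular identifier (UMI), so levels are 3′ UMI counts and are not divided by gene length.

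There were 18957 cells in B6_E10.5, 12220 in 129_E9.5 and 12773 in B6_E9.5, with medians of 5710, 7348 and 7623 UMIs per cell. Depth was uneven: 10.1% of the cells of B6_E10.5, 3.49% of those of 129_E9.5 and 30.8% of those of B6_E9.5 had under 2000 UMIs. Barcodes of 1728 cells occurred in more than 1 library (657, 508 and 563 in the same order). The authors' 5 numbered clusters carry no deposited names. They were called limb mesenchyme-like, ectoderm-like, muscle progenitor-like, endothelium-like and erythroid-like here from marker genes, and the names are shortened below. Summed markers of 8 mesenchyme genes stood at 1668, 1477 and 1451 CPM (UMIs per 1000000 UMIs of the class) in the mesenchyme of B6_E10.5, 129_E9.5 and B6_E9.5. Erythroid markers were found in the same cells at 303, 451 and 1331 CPM. The muscle class of 129_E9.5 carried neuron markers at 836 CPM, against 11.8 CPM in B6_E10.5 and 7.28 CPM in B6_E9.5. The endothelial class carried megakaryocyte markers at 1333, 276 and 224 CPM and macrophage markers at 1264, 19.7 and 35.4 CPM in B6_E10.5, 129_E9.5 and B6_E9.5.

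The promoters of 6 members are shown because differences described below turn on these members, and because both lists are known for short promoter sequences. RefSeq windows of the 250 bases before a start site (GRCm38.p6) were found for 49 of the 60 members. Capitals mark E2F letters (TTTCCCGC, TTTCGCGC, TTTGCCGC or TTTGGCGC), CHR letters (TTTGAA or TTCGAA) and CCAAT, each searched on both strands. Mcm6, a subunit of the replicative helicase (chr1:128359706-128359955, minus strand), Cdc6, the loader of that helicase (chr11:98907901-98908150, plus strand), and Ccne1, which encodes cyclin E1 (chr7:38107491-38107740, minus strand), belong to the S list. Top2a, DNA topoisomerase II alpha (chr11:99024190-99024439, minus strand), Ccnb2, which encodes cyclin B2 (chr9:70421555-70421804, minus strand), and Nusap1, a spindle protein (chr2:119618048-119618297, plus strand), belong to the G2/M list.
Mcm6: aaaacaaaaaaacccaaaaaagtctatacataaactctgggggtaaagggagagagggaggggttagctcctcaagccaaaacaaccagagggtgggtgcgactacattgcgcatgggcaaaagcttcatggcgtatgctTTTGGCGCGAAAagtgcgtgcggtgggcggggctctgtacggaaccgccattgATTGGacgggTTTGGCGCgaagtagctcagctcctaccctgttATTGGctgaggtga
Cdc6: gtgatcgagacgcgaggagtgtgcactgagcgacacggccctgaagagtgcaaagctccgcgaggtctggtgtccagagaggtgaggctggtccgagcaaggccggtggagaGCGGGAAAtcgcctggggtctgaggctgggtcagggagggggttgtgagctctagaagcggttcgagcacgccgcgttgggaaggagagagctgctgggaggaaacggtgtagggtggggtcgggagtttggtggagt
Ccne1: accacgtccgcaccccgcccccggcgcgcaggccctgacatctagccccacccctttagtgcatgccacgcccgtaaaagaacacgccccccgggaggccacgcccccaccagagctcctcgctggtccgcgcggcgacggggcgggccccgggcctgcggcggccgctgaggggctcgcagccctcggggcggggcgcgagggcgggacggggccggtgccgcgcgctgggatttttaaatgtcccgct
Top2a: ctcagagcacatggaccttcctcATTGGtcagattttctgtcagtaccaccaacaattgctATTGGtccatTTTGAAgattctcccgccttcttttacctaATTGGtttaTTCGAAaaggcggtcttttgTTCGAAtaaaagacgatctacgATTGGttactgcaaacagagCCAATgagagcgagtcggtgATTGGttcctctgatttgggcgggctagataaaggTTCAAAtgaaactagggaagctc
Ccnb2: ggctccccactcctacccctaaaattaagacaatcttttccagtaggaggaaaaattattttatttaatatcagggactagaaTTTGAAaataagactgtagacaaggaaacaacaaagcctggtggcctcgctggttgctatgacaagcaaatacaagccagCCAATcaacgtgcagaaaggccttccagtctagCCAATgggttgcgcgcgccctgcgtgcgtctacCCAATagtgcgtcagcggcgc
Nusap1: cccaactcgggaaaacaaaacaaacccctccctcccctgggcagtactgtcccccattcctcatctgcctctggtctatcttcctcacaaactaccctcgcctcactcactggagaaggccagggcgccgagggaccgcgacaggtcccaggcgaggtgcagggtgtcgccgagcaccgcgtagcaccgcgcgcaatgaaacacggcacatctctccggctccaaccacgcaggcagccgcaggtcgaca

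Of the 26 windows of S members 34.6% held E2F letters, against 3.85% of the 26 windows of G2/M members and 1.86% of all 32851 windows of the same length. CCAAT was found in 65.4% of the S windows, 80.8% of the G2/M windows and 33.8% of all windows, and at least 2 copies in 30.8%, 61.5% and 10.1%. CHR letters were found in 19.2%, 30.8% and 17.1%. The Top2a window held 6 copies of CCAAT and 4 of CHR letters, while the windows of Ccne1 and Nusap1 held none of the letters searched. These are matches of letters and not measured sites.

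In limb mesenchyme the S members with most UMIs were Nasp, a histone chaperone, and Rrm2, the regulated subunit of ribonucleotide reductase. Nasp was counted at 425 CPM in B6_E10.5, 596 CPM in 129_E9.5 and 369 CPM in B6_E9.5, and Rrm2 at 349, 456 and 345 CPM. The MCM helicase genes ranged from 78.6 CPM (Mcm4 in B6_E10.5) to 215 CPM (Mcm7 in 129_E9.5). Pcna, the sliding clamp of the replication fork, was at 211, 265 and 298 CPM, and Slbp, which binds histone mRNA, at 307, 347 and 326 CPM. Members with few UMIs were Cdc45 (19.8, 30.2 and 16.3 CPM), Ccne2 (24.0, 18.1 and 37.7 CPM) and Cdc6 (27.7, 42.1 and 33.2 CPM). Among G2/M members, Top2a was at 506, 393 and 305 CPM, the centromeric histone gene Cenpa at 453, 333 and 437 CPM, the cyclin-dependent kinase subunit gene Cks2 at 408, 330 and 528 CPM, and Ube2c, an ubiquitin-conjugating enzyme of anaphase, at 392, 286 and 268 CPM. Anln and Ckap2 were lowest, between 18.7 and 26.9 CPM. Both lists were therefore counted in every library of the mesenchyme, and no member was absent.

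Summed over the list, S members made up 38.3 of 10000 UMIs in the mesenchyme of B6_E10.5, 47.9 in 129_E9.5 and 39.1 in B6_E9.5. G2/M members made up 46.7, 45.6 and 41.8 of 10000. The S sum was therefore alike in both c57bl6.J libraries, with a ratio of B6_E10.5 over B6_E9.5 of 0.98 (95% interval 0.97 to 0.98), and higher in 129_E9.5, with a ratio over B6_E9.5 of 1.22 (1.22 to 1.23). The ratio of the G2/M sum was 1.12 (1.11 to 1.12) for stage and 1.09 (1.085 to 1.095) for strain. Cells with at least 2000 UMIs were also thinned at random to 2000, which left 13704 of 15325 mesenchyme cells in B6_E10.5, 8967 of 9233 in 129_E9.5 and 6981 of 9678 in B6_E9.5. In these cells the ratios were 0.98 and 1.26 for S and 1.03 and 1.06 for G2/M, so both the cells and their depth differ from the sums above. All intervals here cover counting error only. With 1 library a group no stage or strain difference has a replicate check or a test, and library, reaction and group cannot be told apart.

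The stage comparison sets B6_E10.5 over B6_E9.5. Members were called higher or lower past a 1.5-fold difference in CPM, provided that the higher library had 20 CPM or more and the pair 20 UMIs or more. In limb mesenchyme 4 of the 59 members that passed this filter were higher (13.8% of all 6127 genes tested were) and 3 were lower (9.27% of all). Both shares lie below those of all genes, and the median log2 ratio was -0.01 for S members and 0.10 for G2/M members beside 0.03 for all. Nusap1 had 65.4 CPM in B6_E10.5, against 28.1 CPM in B6_E9.5, a ratio of 2.32 (2.22 to 2.43). Top2a had 506 against 305 CPM (1.66, 1.63 to 1.68), Ccnb2 88.3 against 55.1 CPM (1.60, 1.55 to 1.66), and Prim1, the primase subunit that starts new DNA strands, 57.5 against 35.4 CPM (1.62, 1.56 to 1.70). The lower members were the cyclin E genes Ccne1, with 85.4 against 139 CPM (0.61, 0.60 to 0.63), and Ccne2, with 24.0 against 37.7 CPM (0.64, 0.60 to 0.67), and Hells, a chromatin remodeller, with 86.3 against 130 CPM (0.66, 0.64 to 0.68). Just inside and just outside the limit on the higher side were Ccnb2 and Ube2c (1.46), and on the lower side Hells and Pcna (0.71). With TMM scaling the median log2 ratio of all genes moved to -0.11, which took Prim1 (1.49) and Ccnb2 (1.47) below the limit, while Top2a (1.52) and Nusap1 (2.13) stayed above it.

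Among other cell cycle genes, listed by pathway, Cdkn1c was at 876 CPM in the mesenchyme of B6_E10.5 and at 160 CPM in B6_E9.5 (ratio 5.49), and the G1 cyclin gene Ccnd2 at 645 and 361 CPM (1.79). The E2F genes did not move together: E2f1 was at 62.1 against 37.4 CPM (1.66), but E2f3 at 26.2 against 45.6 CPM (0.57). The gene of the E2F partner, Tfdp1, had a ratio of 0.56. Mad2l1 of the spindle checkpoint had 76.5 against 115 CPM (0.67), and Cdc25c, the phosphatase that activates mitotic Cdk1, 57.9 against 32.7 CPM (1.77).

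The strain comparison sets 129_E9.5 over B6_E9.5. In limb mesenchyme 12 of 60 members were at least 1.5-fold higher (12.8% of all 5884 genes tested were) and 2 were lower (11.1% of all). The share of higher S members, 7 of 30, stands above that of all genes, while that of G2/M members, 5 of 30, is near it. A ratio over 1 was found for 22 of 30 S members. The median log2 ratio was 0.34 for S members and 0.14 for G2/M members beside 0.05 for all. The S members were Mcm7 (215 against 120 CPM, ratio 1.79, 1.74 to 1.83) and Mcm5 (190 against 123 CPM, 1.55) of the helicase, Cdc45 of the active helicase (30.2 against 16.3 CPM, 1.85), the clamp loader gene Rfc2 (194 against 126 CPM, 1.54), the ribonucleotide reductase gene Rrm1 (153 against 95.5 CPM, 1.60), and the histone chaperones Nasp (596 against 369 CPM, 1.62) and Chaf1b (71.6 against 41 CPM, 1.75). The G2/M members were the mitotic cyclin genes Ccnb1 (227 against 135 CPM, ratio 1.68, 1.64 to 1.72) and Ccnb2 (103 against 55.1 CPM, 1.87), Cdca8 of the chromosomal passenger complex (276 against 145 CPM, 1.91), Nusap1 (53.6 against 28.1 CPM, 1.90) and the anaphase activator Cdc20 (230 against 149 CPM, 1.55). The lower members were Ccne2 (18.1 against 37.7 CPM, ratio 0.48, 0.45 to 0.51) and Cks2 (330 against 528 CPM, 0.62, 0.61 to 0.63). Both cyclin E genes did not go the same way: Ccne1 was at 179 against 139 CPM (1.29).

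**Figure D1:**
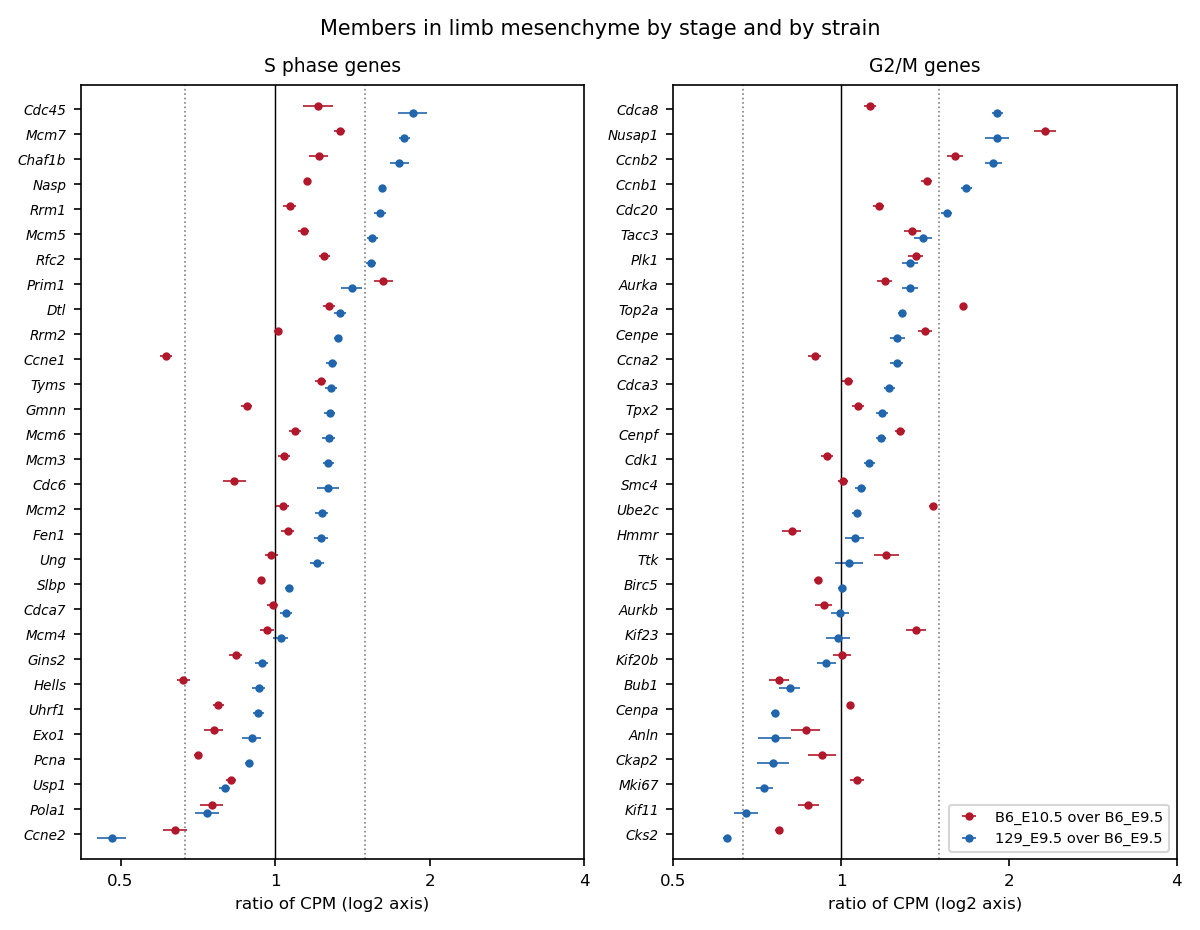
Ratio of CPM in limb mesenchyme for each S member (left) and G2/M member (right), on a log2 axis, for the stage ratio (B6_E10.5 to B6_E9.5) and the strain ratio (129_E9.5 to B6_E9.5). Bars are 95% counting intervals and dotted lines mark the 1.5-fold limits. Nusap1 is at 2.32 by stage and 1.90 by strain, Ccne2 at 0.64 and 0.48, and 22 of 30 S members lie to the right of 1 by strain.

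Of 15 other fork and nucleotide genes tested in the same mesenchyme 6 were higher in 129_E9.5, beside the 12.8% of all genes. Of 14 other origin genes 1 was higher (Gins4, 92.5 against 57.2 CPM, ratio 1.62) and 2 were lower (Orc6, 0.62, and Dbf4, 0.65), with a median ratio of 0.97. The 6 higher fork and nucleotide genes were the DNA polymerase delta genes Pold1 (40.4 against 25.1 CPM, ratio 1.61) and Pold2 (122 against 57.7 CPM, 2.12), the clamp loader genes Rfc3 (1.53), Rfc4 (1.52) and Rfc5 (1.68), and Rpa2 of the single-strand binding complex (1.51). Another subunit of that complex, Rpa3, went the other way, at 26.5 against 141 CPM (0.19), as did the primase subunit gene Prim2 (14.3 against 26.6 CPM, 0.54). Pttg1, which encodes securin, had 163 against 49.95 CPM (3.26). Replication-dependent histone genes were lower for 5 of 6 tested, led by Hist1h4i at 10.6 against 109 CPM (0.10), with Hist1h3d higher at 29.9 against 13.9 CPM (2.15). These histone genes have near-identical copies. How reads shared by such copies were counted, and how well histone transcripts were captured, was not checked here, so the histone values are uncertain.

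The strain and stage ratios share B6_E9.5, so the values of both are set side by side for the members that also passed in other classes. Ccne2 was lower in 129_E9.5 in all 4 classes set beside each other, with ratios of 0.48 in ectoderm, 0.54 in muscle, 0.44 in endothelium and 0.48 in mesenchyme. Cks2 was at 0.57, 0.55, 0.59 and 0.62, and Ccnb1 at 1.52, 1.75, 1.71 and 1.68 in the same order. The kinesin gene Kif11 was at 0.57, 0.59 and 0.53 in ectoderm, muscle and endothelium and just short of the limit in mesenchyme (31.6 against 46.8 CPM, 0.67). The stage ratios of these genes were 0.63, 0.99, 0.62 and 0.64 for Ccne2, and 0.68, 0.63, 0.78 and 0.77 for Cks2. Those of Ccnb1 were 1.11, 1.22, 1.47 and 1.43. Each ratio has an interval that covers counting error only.

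In ectoderm Dtl, an adaptor of a ubiquitin ligase that acts at the fork, was the only member higher by stage (7.92% of all genes were), with 117 CPM in B6_E10.5, against 71.1 CPM in B6_E9.5. Ccne1, Ccne2 and the checkpoint kinase gene Bub1 were lower (5.56% of all), Bub1 with 31.6 against 49.2 CPM. By strain, Nusap1 (101 against 58.7 CPM) and Ccnb1 were higher in ectoderm (9.38% of all), and Ccne2, Cks2, Kif11 and Ckap2 were lower (9.40% of all). In muscle, Nusap1 was higher by stage (8.92% of all), and Cdk1 (112 against 192 CPM, ratio 0.58), Cks2, Bub1 and the kinesin gene Kif20b were lower (13.4% of all). By strain, Mcm5, Mcm7, Cdc45, Chaf1b, Nusap1, Ccnb1, Ccnb2 and Cdca8 were higher in muscle (13.5% of all), and Ccne2, Mki67, Cks2, Kif11 and Cenpa were lower (14.7% of all). The neuron markers of the muscle class of 129_E9.5 move with this comparison, and their part in it was not tested.

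In endothelium, Mcm6 (155 CPM in B6_E10.5, against 96.6 CPM in B6_E9.5), Mcm7, Chaf1b and Top2a were higher by stage (11.7% of all genes were) and Ccne2 was lower (10.9% of all). By strain, Mcm7, Ccne1, Chaf1b and Ccnb1 were higher (12.0% of all), and Ccne2, Cks2, Bub1, Kif11 and the cytokinesis gene Anln were lower (10.2% of all). Megakaryocyte and macrophage markers are highest in the endothelial class of B6_E10.5, and their part in the stage ratios was not tested.

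The classes were next set over the mesenchyme of their own library. The clusters were made from the same UMIs, so these values are descriptions with no test. S members made up 31.0, 36.9 and 33.7 of 10000 UMIs in the ectoderm of B6_E10.5, 129_E9.5 and B6_E9.5, which is 0.81, 0.77 and 0.86 times the sums in their mesenchyme. In muscle they made up 33.1, 39.0 and 34.7 (0.86, 0.81 and 0.89 times), and in endothelium 30.6, 30.5 and 29.2 (0.80, 0.64 and 0.75 times). The mesenchyme therefore had the highest S sum among these 4 classes in each of the 3 libraries. The G2/M sum did not keep that order. Ectoderm had 38.5, 39.0 and 41.8 of 10000 (0.83, 0.86 and 1.00 times mesenchyme), muscle 40.1, 43.8 and 43.6 (0.86, 0.96 and 1.04 times), and endothelium 39.1, 37.1 and 38.7 (0.84, 0.81 and 0.93 times).

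Erythroid cells had the lowest sums per 10000, 19.1, 19.9 and 22.7 for S and 26.5, 26.1 and 33.8 for G2/M. Globin transcripts took 51.3%, 52.1% and 31.9% of their UMIs, and without them the S sums were 39.2, 41.6 and 33.3 and the G2/M sums 54.4, 54.5 and 49.6. These G2/M sums are 1.16, 1.20 and 1.19 times those of mesenchyme computed in the same way, so the G2/M order of erythroid cells and mesenchyme turns with the denominator. The S sums without globin are 1.02, 0.87 and 0.85 times those of mesenchyme, so the S order turns in B6_E10.5 alone. The median erythroid cell held 14608, 12004 and only 735 UMIs in B6_E10.5, 129_E9.5 and B6_E9.5.

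**Figure D2:**
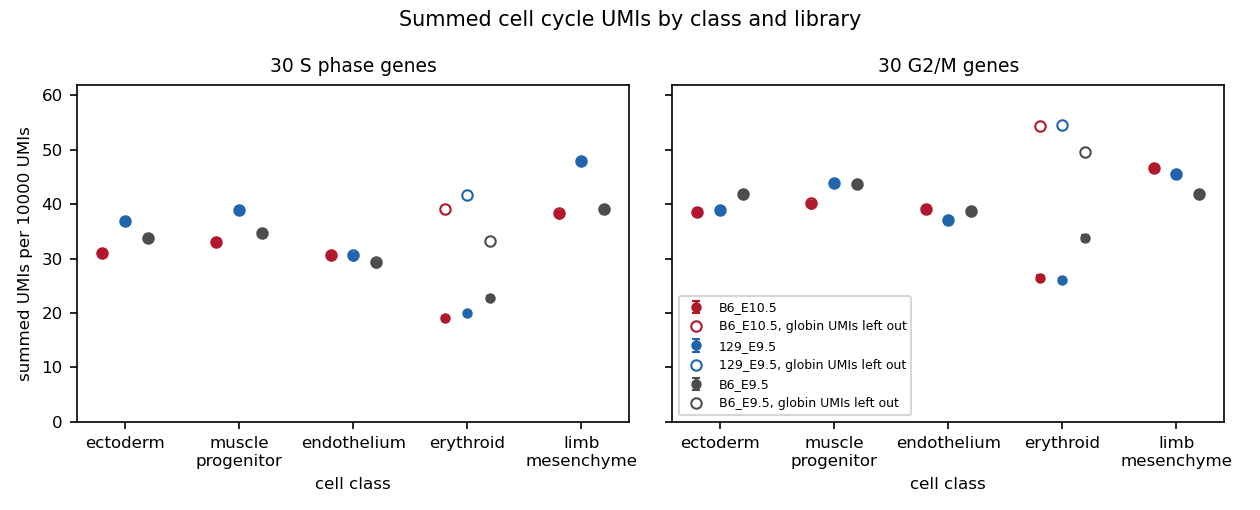
Summed S UMIs (left) and G2/M UMIs (right) per 10000 UMIs by class and library, with 95% counting intervals that are mostly smaller than the points. Open circles leave globin UMIs out of the total. Mesenchyme S sums of 38.3, 47.9 and 39.1 stand above those of ectoderm, muscle and endothelium, and the erythroid S sum of B6_E10.5 is 39.2 without globin and 19.1 with it.

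By single member, Ccne1 was at least 1.5-fold lower in ectoderm than in mesenchyme in 3 of 3 libraries, with 48.5, 66.1 and 75.3 CPM and ratios of 0.57, 0.37 and 0.54. Ectoderm had 4 lower members in B6_E10.5 (8.77% of all genes were), 9 in 129_E9.5 (10.2%) and 3 in B6_E9.5 (10.6%). No member was higher in B6_E10.5 (12.0% of all), Nusap1 was in 129_E9.5 (16.0%), and Nusap1 and Ccnb2 were in B6_E9.5 (16.2%). Nusap1 had 79.6, 101 and 58.7 CPM in ectoderm, with ratios of 1.22, 1.88 and 2.09. Muscle was close to mesenchyme, with Ccnb2 lower in B6_E10.5 (6.43% of all), Mcm6 in 129_E9.5 (4.84%) and Ccne2 in B6_E9.5 (3.82%). Higher members in muscle numbered 0 in B6_E10.5 (3.62% of all) and in 129_E9.5 (6.35%), and in B6_E9.5 the kinetochore kinesin gene Cenpe was higher (6.63%).

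Among ectoderm, muscle and endothelium, endothelium had most members below mesenchyme: 12 of 60 in B6_E10.5 (20.9% of all genes were), 19 of 59 in 129_E9.5 (16.9%) and 11 of 59 in B6_E9.5 (17.2%). The share of all members is near that of all genes except in 129_E9.5, where 14 of 29 S members were lower and the median log2 ratio of S members was -0.57 beside -0.10 for all genes. Among S members alone, 9 of 29 were lower in B6_E9.5, with a median log2 ratio of -0.33 beside -0.08 for all genes. In B6_E10.5 6 of 30 S members were lower, with a median of -0.22 beside -0.10. In each of the 3 libraries Rrm2, Cdca7, Dtl, Nasp, Ccne1, the exonuclease gene Exo1 and the kinetochore gene Cenpf were among the lower members. Ccne1 had 39.3, 52.2 and 28.5 CPM in endothelium, with ratios of 0.46, 0.29 and 0.20, and Nasp 235, 237 and 182 CPM, with ratios of 0.55, 0.40 and 0.49. Only Cdk1 was higher in B6_E10.5 (19.5% of all) and only Ccnb2 in B6_E9.5 (20.5%), and 0 members were in 129_E9.5 (20.1%).

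Sums over a class do not show how UMIs were shared out among cells, and here the stages differed more than in the sums. After thinning to 2000 UMIs, the 30 G2/M members gave a mean of 8.60 UMIs per mesenchyme cell in B6_E10.5 (13704 cells), 8.84 in 129_E9.5 (8967 cells) and 8.35 in B6_E9.5 (6981 cells). The variance over the mean was 5.19, 2.23 and 1.88, and 6.23%, 0.279% and 0.186% of the cells had 0 G2/M UMIs. At the other end, the 95th percentile was 21, 17 and 16 UMIs. At E10.5 the mesenchyme thus held more cells with no G2/M UMI and more cells with many, around a like mean. S UMIs spread less, with a variance over the mean of 2.21, 1.73 and 1.44.

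The difference was as large among cells of 4000 to 8000 UMIs alone, with a variance over the mean of 5.71, 2.11 and 1.94 and with 7.59%, 0.407% and 0.456% of cells at 0. Without shared barcodes the variance over the mean was 5.19, 2.22 and 1.88, and without the 5% of cells with most UMIs 5.29, 2.24 and 1.89. Among deeper cells, of 8000 to 16000 UMIs, the share at 0 was 0.644%, 0.109% and 0.228%, and the variance over the mean 3.59, 2.10 and 1.91. Erythroid markers in mesenchyme, a measure of RNA from other cells, were lowest in B6_E10.5 (303, 451 and 1331 CPM), and the part of such RNA in the counts near 0 was not tested. No class of this tissue lacks cell cycle genes, so no background share could be read.

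**Figure D3:**
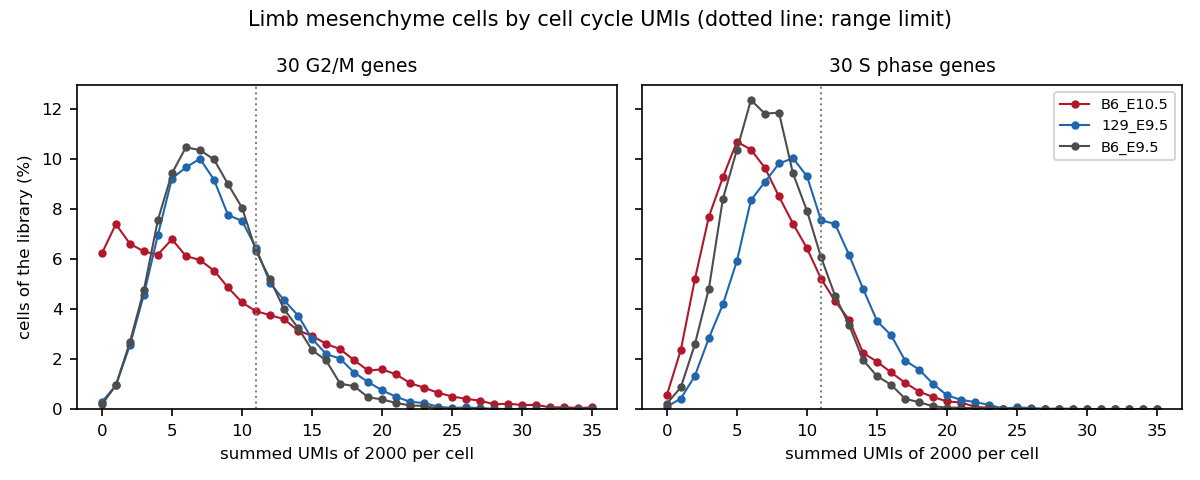
Share of limb mesenchyme cells of each library, in percent, by summed G2/M UMIs (left) and S UMIs (right) among 2000 UMIs per cell. The dotted line is the limit of 11 UMIs used for the high ranges. In the G2/M panel B6_E10.5 is spread from a raised share at 0 (6.23%) to a long right side, while both E9.5 libraries peak just below their means of 8.84 and 8.35.

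Other classes showed wide G2/M spread at E9.5 too. In ectoderm the variance over the mean was 4.90, 5.19 and 3.75 in B6_E10.5, 129_E9.5 and B6_E9.5, with 9.32%, 10.46% and 2.59% of cells at 0. In muscle it was 3.37, 3.09 and 2.17 (3.75%, 3.14% and 0.743% at 0), and in endothelium 4.69, 4.0 and 2.93 (5.20%, 8.72% and 1.09% at 0). In 129_E9.5 the low G2/M spread was thus seen in mesenchyme and not in ectoderm or endothelium. Some cells at 0 carried markers of other cell types. The 20 such muscle cells of 129_E9.5 had neuron markers at 11575 CPM, against 554 CPM in the other muscle cells. The 29 such endothelial cells of B6_E10.5 had megakaryocyte markers at 7103 CPM, against 743 CPM in the others.

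The mesenchyme cells of B6_E10.5 without a G2/M UMI numbered 854, and they were set beside the other 12850. These cells were chosen by their G2/M UMIs, so the values are a description. They had a median of 4384 UMIs before thinning, against 6134, a median mitochondrial share of 4.42%, against 3.74%, and mesenchyme markers at 1201 CPM, against 1641 CPM. Their S sum was 31.0 of 10000, against 38.0. S members were not all lower: Rrm2 had a ratio of 0.33, Cdc45 of 0.36, Fen1, the flap endonuclease, of 0.54, the chromatin protein gene Uhrf1 of 0.55 and Rrm1 of 0.57, while Mcm6 was at 1.42, Prim1 at 1.26, Mcm4 at 1.24 and Mcm2 at 1.15. Cdkn1c was at 2102 CPM in the cells without G2/M UMIs and 894 CPM in the others (ratio 2.35), Ccnd2 at 1085 and 645 CPM (1.68) and the antiproliferative gene Btg1 at 204 and 139 CPM (1.47). Mybl2 (0.20) and Foxm1 (0.18), which drive G2/M transcription, were low.

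Among all 6174 other genes tested, 7.94% were at least 1.5-fold higher in these cells and 7.52% lower. Those with the largest ratios, named after their values were seen, included the joint gene Gdf5 (22.2 against 4.44 CPM, ratio 5.02), the cartilage collagen gene Col9a2 (4.67), Creb5 (149 against 38.8 CPM, 3.83) and Jun (157 against 43.1 CPM, 3.64). At the other end stood the distal genes Hoxd13 (ratio 0.083) and Msx1 (18.7 against 187 CPM, 0.10), the BMP antagonist Grem1 (0.085) and the pro-apoptotic gene Pmaip1 (0.047).

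The share of such cells is given next by genes that are not members. For Msx1 and Cdkn1c in B6_E10.5 this is the same table as the ratios above read the other way, and it adds no separate evidence. In the mesenchyme of B6_E10.5, 10.3% of cells with a Sox9 UMI had no G2/M UMI (95% interval 9.34 to 11.3), against 4.60% without Sox9 (4.19 to 5.03). For Msx1, a gene of distal mesenchyme, the shares were 0.881% (0.559 to 1.32) with it and 7.49% (7.01 to 8.00) without it. For Cdkn1c they were 8.37% (7.82 to 8.94) with it and 1.26% (0.944 to 1.65) without it. Cells with both Sox9 and Cdkn1c had 11.9%, cells with Sox9 alone 2.62%, cells with Cdkn1c alone 6.56% and cells with neither 0.991%. Before thinning, the median depth of B6_E10.5 cells was 5200 UMIs with Sox9 and 6263.5 without, 7352.5 with Msx1 and 5637 without, and 5657.5 with Cdkn1c and 6698 without. In each case the state with more cells at 0 was the shallower one, and the part of depth in these shares was not tested. In 129_E9.5 and B6_E9.5 the highest share in such a group was 1.67%, from 1 of 60 cells. In ectoderm, cells with Fgf8, the growth factor of the apical ridge, had 14.2%, 15.6% and 3.58% in B6_E10.5, 129_E9.5 and B6_E9.5, against 7.86%, 7.35% and 2.07% without Fgf8. The intervals were 9.76 to 19.6, 12.3 to 19.3 and 1.80 to 6.32 with Fgf8. Without it they were 5.97 to 10.1, 5.55 to 9.51 and 1.07 to 3.59, so those of both c57bl6.J libraries overlap. Cells with Fgf8 were shallower in B6_E10.5 and 129_E9.5 and deeper in B6_E9.5, and the part of depth was not tested here either.

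**Figure D4:**
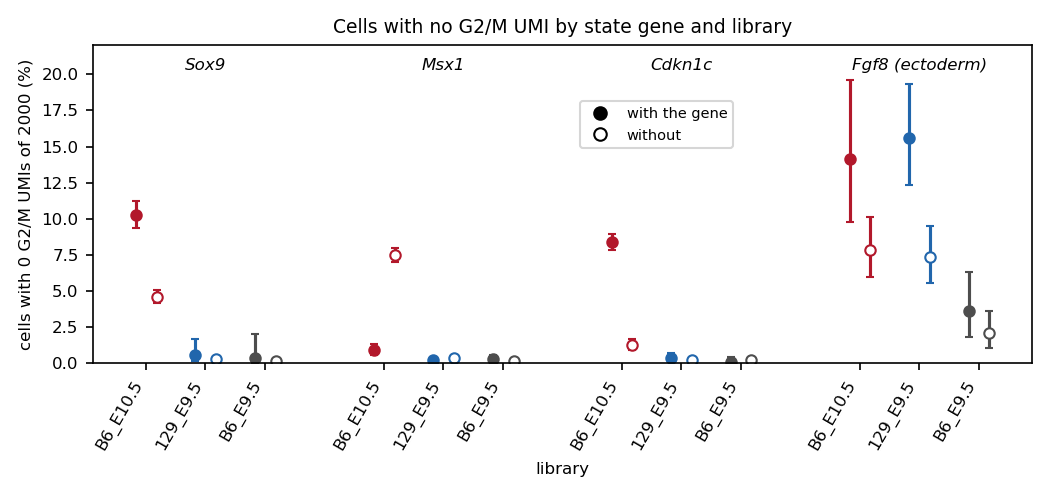
Share of cells with 0 G2/M UMIs among 2000, in percent with exact 95% intervals, for cells with (filled) and without (open) a UMI of Sox9, Msx1 or Cdkn1c in limb mesenchyme, or of Fgf8 in ectoderm, by library. In the mesenchyme of B6_E10.5 the shares are 10.3% against 4.60% for Sox9, 0.881% against 7.49% for Msx1 and 8.37% against 1.26% for Cdkn1c, and the mesenchyme shares of both E9.5 libraries lie near 0.

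Cells were also put in ranges by their sums. The limits were the 75th percentiles over thinned mesenchyme with libraries weighted equally, and both came to 11 UMIs of 2000. These are ranges and not cell types: 3.92%, 6.46% and 6.33% of the mesenchyme cells of B6_E10.5, 129_E9.5 and B6_E9.5 sat exactly at the G2/M limit, and 5.22%, 7.56% and 6.09% at the S limit. In B6_E10.5, 33.6% of mesenchyme cells reached the G2/M limit (32.9 to 34.4), in 129_E9.5 31.2% (30.3 to 32.2) and in B6_E9.5 26.5% (25.4 to 27.5). The S limit was reached by 21.7% (21.1 to 22.4), 38.5% (37.5 to 39.5) and 19.2% (18.3 to 20.2). Both limits were reached by 2.41%, 6.38% and 2.54%, and neither by 47.0%, 36.6% and 56.8%. S and G2/M sums ran against each other from cell to cell, with Pearson's r of -0.27 over 13704 cells, -0.33 over 8967 and -0.24 over 6981, as a description of cells that share a library and a fixed total of UMIs. The stage order of the G2/M share depends on the limit: with the limit at the median in place of the 75th percentile the ratio of B6_E10.5 over B6_E9.5 was 0.90, against 1.27, and with the 90th percentile it was 3.06. Cells in the ranges also differed in depth before thinning, with medians of 7132, 8463 and 13323 UMIs in the G2/M-high range and 5039, 7344 and 12682 in neither, and the part of depth in the shares was not tested.

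To see which members make up each range, every member was left out in turn, cells were ranged by the others, and the level of the left-out member was read. This is a description, since members of 1 list were chosen as a set. No share of all genes past 1.5-fold between these ranges is given here. The counts of G2/M members, and those of S members below, therefore have no background beside them. In B6_E10.5 all 30 G2/M members were at least 1.5-fold higher in the G2/M-high range than in cells of neither, in 129_E9.5 15 and in B6_E9.5 13, and 12 were in all 3. The median ratio was 2.88, 1.5 and 1.47. Nusap1 led in each library, with 135, 108 and 58.0 CPM in the G2/M-high range, against 25.9, 43.1 and 23.4 CPM in neither, ratios of 5.22, 2.50 and 2.48. Ube2c (4.17, 2.03 and 1.77) and Ccnb1 (4.12, 1.961 and 1.86) were also high, with the kinase gene Aurkb above Ccnb1 in 129_E9.5 (2.02). Ccnb2 was weakest in each library (1.77, 1.13 and 1.11), although its product pairs with the same kinase as that of Ccnb1, and Top2a was at 2.04, 1.27 and 1.20.

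S members followed their range less. In the S-high range 19, 6 and 2 of 30 were at least 1.5-fold higher than in neither, and Ung and Cdc6 were in all 3 libraries. Cdc6 was at 59.1, 66.3 and 52.5 CPM in the S-high range, against 26.4, 34.97 and 32.9 CPM in neither (ratios 2.24, 1.90 and 1.60). The uracil-DNA glycosylase gene Ung was at 191, 183 and 133 CPM, against 96.3, 104 and 87.4 CPM (1.98, 1.75 and 1.52). Ccne2 was at 60.5, 31.9 and 61.8 CPM, against 24.5, 18.6 and 43.9 CPM (2.46, 1.72 and 1.41). In the G2/M-high range Ccne2 and Ung were the lowest members, with ratios over neither of 0.16, 0.33 and 0.37 for Ccne2 and 0.21, 0.35 and 0.44 for Ung. The polymerase alpha gene Pola1 followed the range least in both E9.5 libraries (1.24, 0.92 and 0.77), and Cdca7 in B6_E10.5 (1.18). Of the G2/M members 29 of 30 were higher in the G2/M-high than in the S-high range in all 3 libraries, and 0 of 30 S members were.

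**Figure D5:**
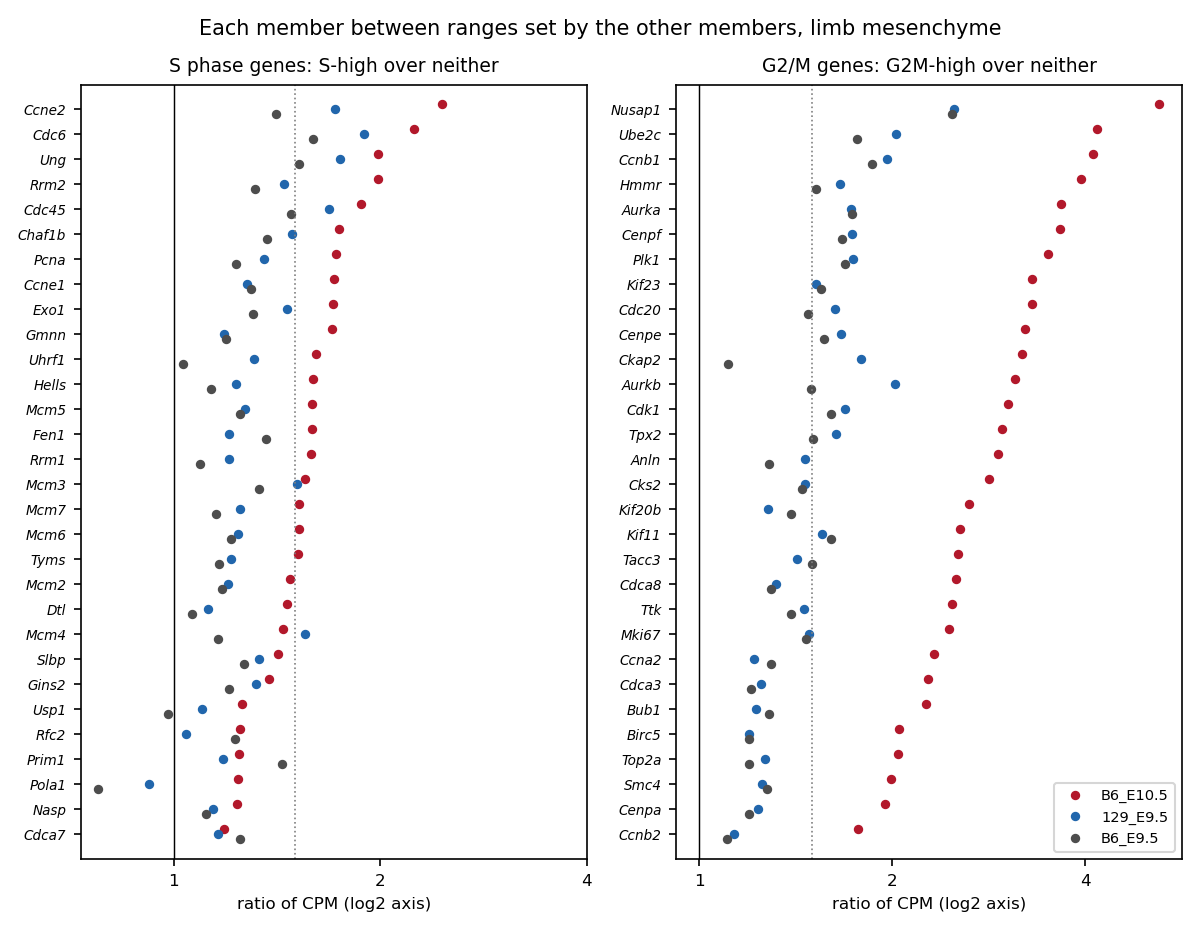
Ratio of CPM in the S-high range over neither for each S member (left) and in the G2/M-high range over neither for each G2/M member (right), on a log2 axis, in limb mesenchyme, with ranges set by the other members. The dotted line marks 1.5. In the G2/M panel Nusap1 (5.22, 2.50 and 2.48) is at one end and Ccnb2 (1.77, 1.13 and 1.11) at the other. There B6_E10.5 lies to the right of both E9.5 libraries. In the S panel it does not for Mcm4 (1.44, against 1.55 in 129_E9.5), Cdca7 (1.18, against 1.25 in B6_E9.5) and Prim1 (1.24, against 1.44 in B6_E9.5).

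Genes outside the lists were compared by a test, since both ranges come from each library and libraries serve as replicates. The ranges were set from the members in the same thinned cells, so genes that vary with the members were bound to differ. The adjusted p values therefore describe how steady a difference was over 3 libraries that differ in stage or strain. They are not separate evidence for the ranges. The pairs of ranges were compared in 3 libraries by edgeR's quasi-likelihood test with library as a block and Benjamini-Hochberg adjustment. Of 11179 other genes tested, 0.939% rose in the G2/M-high range and 57 fell (0.510%). Among 11 other kinetochore and condensin genes 6 rose and 0 fell: Incenp was at 165, 167 and 116 CPM in the G2/M-high range, against 57.3, 108 and 70.7 CPM in neither (log2 fold change 0.97, SE 0.13, adjusted p = 0.0012 by edgeR), and Ndc80, Nuf2, Spc25, Knl1 and Smc2 rose with it. Of 12 other mitotic control genes Bub1b, Bub3, Cdc25b and Cdc25c rose and Cdc25a, which acts at the entry to S phase, fell. Of 17 other fork and nucleotide genes 0 rose, and Rfc3, Rpa2 and Tk1 were among those that fell, and E2f1 and Mybl2 fell.

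The largest rises outside all lists were those of Sapcd2 (log2 fold change 1.38, SE 0.16), the spindle midzone gene Prc1 (1.36), the cyclin F gene Ccnf (1.28), the kinesin gene Kifc1 (1.25), Arl6ip1 (1.24), Depdc1a (1.23) and the spindle pole gene Aspm (1.22), followed by Cenpl, Ckap2l, Troap and Kif18a. The largest falls were those of the ubiquitin ligase gene Rnf168 (-0.70), the fork protection gene Donson (-0.67), Wdr76 (-0.67) and the mismatch repair gene Msh6 (-0.60), followed by Bag2, Pus3, Nsg1, Tmem121, Rnf227, Golt1b, Atad2 and Ubr7. Adjusted p by edgeR was 0.00036 for Sapcd2 and 0.0024 for Rnf168. DESeq2 with the same design called 41 that rose and 7 that fell, and a fit without the library block called 0 in either direction (99 at an unadjusted p under 0.05). Without B6_E9.5 24 genes fell, and without B6_E10.5 186 and without 129_E9.5 117.

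In the S-high range 524 of 11018 other genes rose (4.76%) and 277 fell (2.51%). Of 17 other fork and nucleotide genes 12 rose and 0 fell. Rpa2 was at 204, 244 and 147 CPM in the S-high range, against 113, 175 and 112 CPM in neither (log2 fold change 0.62, SE 0.06, adjusted p = 5.4e-09 by edgeR), and Tk1, thymidine kinase, at 162, 170 and 141 CPM, against 90.6, 139 and 99.0 CPM (0.57). Pola2, Pold1, Pold2, Rfc3, Rfc4, Rfc5, Rpa1, Lig1 and Dut were among the others that rose. Of 16 other origin genes 7 rose and 0 fell, led by Cdt1, which loads the helicase with Cdc6 (87.0, 75.1 and 84.1 CPM, against 52.9, 50.2 and 63.9 CPM, log2 fold change 0.61). E2f1, E2f2, E2f7 and E2f8 rose, of which E2f7 and E2f8 encode repressors. Mybl2 and Cdk2 also rose. Of the 11 other kinetochore and condensin genes Spc24, Cenpk and Smc2 rose and Knl1 fell, so Smc2 rose in both ranges. Of 37 histone genes tested 1 rose, Hist1h4i, and the limit on histone values given above holds here too.

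Outside all lists the largest rises were those of Aunip (log2 fold change 0.73), Tcf19 (0.71), Donson (0.63), Fam111a (0.62), the folate enzyme gene Mthfd1 (0.57), the histone acetyltransferase gene Hat1 (0.56) and the nucleoside kinase gene Dck (0.56), followed by Wnt5b, Rad51ap1, Msh6, Pkmyt1 and Slc16a3. Fam111a rose in B6_E10.5 (34.5 against 17.3 CPM) and 129_E9.5 (28.8 against 20.4 CPM) but not in B6_E9.5 (13.7 against 16.4 CPM). The largest falls were those of Prc1 (-0.97), Ddit4 (-0.79), the homeobox gene Gsc (-0.75), Ckap2l (-0.70), the anaphase activator Fzr1 (-0.67) and Jun (-0.65), followed by the cartilage collagen gene Col2a1 (-0.62), Pgpep1, Cdon, Ric1, Notch2 and Gpc6. Prc1 and Ckap2l fell here and rose in the G2/M-high range, and Donson and Msh6 rose here and fell there. Col2a1 had 49.6 CPM in the S-high range and 88.5 CPM in neither in B6_E10.5, but 5.73 and 4.11 CPM in 129_E9.5, and without B6_E10.5 its log2 fold change was 0.40. DESeq2 called 168 that rose and 17 that fell, and a fit without the library block 0 and 0 (31 at an unadjusted p under 0.05). Leaving out 1 library gave 191 to 318 that rose and 102 to 211 that fell, lowest without B6_E9.5.

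The members themselves were tested between cell states set by genes outside the lists, in the same way. In ectoderm, cells with an Fgf8 UMI after thinning (212, 436 and 307 cells) were compared with cells without (700, 721 and 580). The S members were lower in Fgf8 cells, with 27.1, 28.4 and 30.1 of 10000 UMIs with Fgf8, against 32.9, 41.1 and 33.4 without, while the G2/M sums were 33.2, 33.2 and 42.9 with Fgf8, against 35.4, 37.3 and 38.1 without. By edgeR 0 members rose (4.39% of all 8503 genes did) and 5 fell (2.50% of all), all 5 from the S list and all lower in 3 of 3 libraries. Mcm6 fell to 77.8, 64.2 and 55.4 CPM with Fgf8, against 101, 112 and 86.2 CPM without (log2 fold change -0.59, SE 0.17, adjusted p = 0.034 by edgeR). Ccne1 fell to 33.0, 37.8 and 50.5 CPM, against 55.7, 83.9 and 70.7 CPM (-0.78, SE 0.20, adjusted p = 0.021 by edgeR). Dtl (-0.62), Ung (-0.63) and Usp1, a deubiquitinase of DNA repair (-0.54), fell with them. Of the 30 S members 28 had a negative fold change, with a median of -0.28, and 15 of 30 G2/M members, with a median of 0.02, beside -0.01 for all genes tested.

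Of the other lists, the fork genes Pold2, Rpa2 and Tk1 and the G1 kinase gene Cdk6 fell in Fgf8 cells, and the inhibitor gene Cdkn1a and Rb1 rose. Fgf8 cells also had more mesenchyme markers (559, 538 and 536 CPM, against 191, 225 and 420 CPM) and neuron markers (120, 150 and 101 CPM, against 27.1, 48.5 and 20.7 CPM), and their part in the result was not tested. The median depth before thinning was 5701, 4426 and 12338 UMIs with Fgf8, against 6340, 5268 and 11226 without, and its part was not tested. DESeq2 called 0 members (4 at an unadjusted p under 0.05), and without 129_E9.5 edgeR called 0 (3 at an unadjusted p under 0.05).

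In limb mesenchyme, cells with a Sox9 UMI numbered 3942, 515 and 275 and cells without 9762, 8452 and 6706. Their S sums were 33.2, 47.2 and 38.4 of 10000, against 39.3, 48.5 and 38.4 without Sox9, so the difference was seen in B6_E10.5 and hardly in the E9.5 libraries. By edgeR 2 members rose (2.29% of all 11779 genes did) and 7 fell (4.49% of all). Ung fell to 70.4, 64.1 and 83.6 CPM with Sox9, against 103, 118 and 84.7 CPM without (log2 fold change -0.58, SE 0.09, adjusted p = 5.9e-08 by edgeR). Rrm2 fell to 254, 452 and 289 CPM, against 356, 473 and 346 CPM (-0.35, SE 0.07, adjusted p = 5.1e-05 by edgeR). Cdc6 (-0.48), Cdca7 (-0.34), Fen1 (-0.33), Pcna (-0.30) and Mcm3 (-0.25) fell with them, Cdca7 in 2 of 3 libraries and the others in 3 of 3. In B6_E9.5, however, Ung and Mcm3 hardly differed, Mcm3 with 116 CPM against 118 CPM. Nusap1 rose to 73.1, 69.9 and 49.1 CPM, against 54.0, 51.3 and 29.8 CPM (0.44, SE 0.11, adjusted p = 0.0015 by edgeR), and Mki67, the proliferation marker gene, by 0.28 (adjusted p = 0.027 by edgeR). Of 30 S members 29 had a negative fold change, with a median of -0.17, against -0.03 for G2/M members and -0.02 for all genes tested. This is the sign of the fit, which single libraries did not always share. Dtl and Usp1 had it in 1 of 3 libraries, Tyms and Gins2 in 2 of 3, and Nasp and Slbp in 3 of 3.

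Cdkn1c rose in Sox9 cells, and E2f1, Mybl2, Mcm10, Pold1, Pold2, Rpa2, Dut, Tk1 and Pmaip1 fell. Sox9 cells had lower depth before thinning (5200, 7052 and 10758 UMIs, against 6264, 7586 and 14032), and its part in the result was not tested. Without B6_E10.5, the library with most Sox9 cells, 1 member fell (Ung) and 0 rose, and DESeq2 called 1 that fell and 0 that rose.

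Msx1 and Cdkn1c gave few calls. Between cells with and without Msx1 in mesenchyme 0 members rose (0.885% of all 11191 genes did) and Nusap1 fell (1.37% of all). It fell to 51.5, 42.2 and 26.1 CPM with Msx1, against 61.3, 58.8 and 33.8 CPM without (log2 fold change -0.36, SE 0.08, adjusted p = 0.042 by edgeR), and it was not called by DESeq2 or without 129_E9.5. Cdkn1c itself fell with Msx1 and Pmaip1 rose. Between cells with and without Cdkn1c, edgeR called 0 members in either direction (1.92% of all 11484 genes rose and 1.31% fell), with 15 members at an unadjusted p under 0.05 by edgeR and 3 by DESeq2, which called 0. Of the 30 G2/M members 27 had a negative fold change, with a median of -0.09, and 25 of 30 S members, with a median of -0.07, beside -0.01 for all genes tested. In B6_E10.5 the G2/M sum was 41 of 10000 with Cdkn1c and 47.6 without, but the E9.5 libraries differed little (43.9 against 44.4 in 129_E9.5, and 42.5 against 41.5 in B6_E9.5). In muscle, cells with a Myf5 or Myod1 UMI, the genes of muscle commitment, were found in B6_E10.5 only (399 against 1069 cells), so no fit over libraries could be made. Their S sum was 31.4 of 10000, against 33.9 without, and their G2/M sum 37.4, against 37.9.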

How the data were processed

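Single-cell RNA sequencing of forelimb buds (10x Genomics 3′, version 2 chemistry) gave 3 libraries, 1 for each stage and strain, per the labels' protocols. The authors deposited whole UMI counts of each gene in each cell, not normalized, and a cluster number per cell. Cell Ranger 3 and mm10 are named in the submitters' processing notes. How cells were filtered and clustered is not stated there. The cells had 501 to 38723 UMIs. Totals were 119942504 (B6_E10.5), 93029510 (129_E9.5) and 124388358 UMIs (B6_E9.5).

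Cells were assigned to libraries by the deposited stage and strain. UMIs were summed by class and library, with exact Poisson, Clopper-Pearson and conditional binomial 95% intervals, or thinned at random to 2000 UMIs in cells that had them. Fits used edgeR 4.0.16 (quasi-likelihood, filterByExpr) on thinned sums of both states of each library, with the library as block since both states come from the same cells' reaction. DESeq2 1.42.0 was an alternative. No doublet caller was run; cells of high depth and shared barcodes were left out as alternatives. The fits were tested on simulated data. Of 1.5-fold changes 52% were recovered for Fgf8, 59% for Sox9, 78% for Msx1 and 81% to 82% for the other fits. Of 2-fold changes 95% to 98% were recovered. The simulated spread was set and not taken from these data.

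The members, lists and tests were chosen with earlier results of these data known. Genes named are members past the size rule or the test, the 3 highest and lowest of each list, up to 3 per role group by UMIs, genes of the fixed context lists, and for the range fits the 12 largest rises and falls with at least 20 CPM on average, outside the lists. Some genes that this rule names are not reported here.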

Additional observations from a re-analysis of the deposited data

Results flagged for a closer look

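Ccnb2, the cyclin B2 gene, had stage ratios (B6_E10.5 over B6_E9.5) of 0.702 in ectoderm and 1.60 in limb mesenchyme, which lie on opposite sides of 1. Ccne1, the cyclin E1 gene, had stage ratios of 0.644 in ectoderm, 1.38 in endothelium and 0.613 in limb mesenchyme. Its strain ratios (129_E9.5 over B6_E9.5) were 0.878 in ectoderm and 1.83 in endothelium. Each of these is flagged because the classes moved in opposite directions under 1 contrast. With 1 library a group these differences were not tested, and the intervals of the ratios cover counting error only.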

How the results depend on the processing

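No paired analysis was possible because stage and strain have 1 library a group. The stage comparison gave 4 higher members in the main setting, 7 where cells above 5% mitochondrial UMIs or under 2000 genes were left out, 2 with TMM and 2 with DESeq2 size factors. The strain comparison gave 2 lower members, and 1 with at least 50 CPM. The ratio of the share at or above the G2/M limit was 1.27 for stage, turned to 0.903 with the limit at the median, and was 3.06 at the 90th percentile, 1.78 with 4000 UMIs and 1.44 with no thinning. For strain it was 1.18, and 1.65 at the 90th percentile, 1.04 at the median, 1.39 with 4000 UMIs and 1.06 in cells of 4000 to 8000 UMIs, an alternative chosen after seeing the data.

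Without the replicate block 0 members passed in the 4 state fits, and 0 other genes rose and 0 fell in the 2 range fits. Other genes that rose in the G2/M range numbered 41 with DESeq2 and 160 with no filter (92 to 159 leaving out 1 library), and those that fell 7, 145 and, with 4000 UMIs, 90 (24 to 186). In the S range 168 rose with DESeq2 (191 to 318 leaving out 1 library), and 17 fell with DESeq2 and 426 with 4000 UMIs (102 to 211). Col2a1 in the S range reversed to 0.40 without B6_E10.5, and leaving out 1 library gave -0.75 to 0.40.

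For Fgf8, 3 members rose with 4000 UMIs and 2 with all UMIs, and 0 fell with DESeq2 (0 to 5 leaving out 1 library). For Sox9, 0 rose with DESeq2 (0 to 1), and 1 fell with DESeq2, 11 with 4000 UMIs and 2 with all UMIs (1 to 10). For Msx1, 0 fell with DESeq2 and 2 with no filter, with 4000 UMIs or with all UMIs (0 to 3). For Cdkn1c, 7 fell with no filter (0 to 3). The causes were not tested. Of single members named by stage, 22 of 62 alternative values moved by more than counting error, and by strain 9 of 124, with no change of direction. Other results were less steady. Among sums by class 75 alternative values moved, though more stayed the same. For members by state 66 alternative values were weaker and 69 stayed the same. For other genes by range 78 were weaker and 1 reversed, while most stayed the same. Depth limits the thinned counts, which rest on 2000 UMIs per cell.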
